A study of Mus musculus with 8 samples.

Results

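The granin and prohormone processing genes are a set of 10 genes of the dense-core granule: Chga, Chgb, Scg2, Scg3, Scg5, Pcsk1, Pcsk2, Pcsk1n, Vgf and Cpe. They were chosen by name for their function, with earlier results of these data known, and all 10 had a row among the 16279 genes of the input RNA table. Their RNA and their m6A peaks were compared in the mouse neuroblastoma line N2a, 48 h after the cells received siRNA against Emg1 or control siRNA. Emg1 encodes a methyltransferase of 18S ribosomal RNA, and the study asked how EMG1 influences N6-methyladenosine (m6A) in mRNA. The 8 libraries formed 4 groups of 2, namely m6A immunoprecipitation (IP) after Emg1 knockdown, m6A IP after control transfection, input RNA after Emg1 knockdown and input RNA after control transfection. All were made from poly(A) RNA of the same line, and no label says that the 2 libraries of a group are separate cultures, so p-values may measure technical spread only.

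Dense-core granules store peptide hormones and amines until a stimulus releases them. Granins are acidic proteins that condense with this cargo as the granule forms, and several of them are themselves cut into bioactive peptides. Prohormone convertases cleave precursors after a pair of basic residues, carboxypeptidase E then trims the basic residues left at the new end, and small binding proteins chaperone or inhibit each convertase. N2a cells derive from the sympathetic lineage, whose normal chromaffin cells and neurons use this pathway.

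The files give 1 mean and 1 fold change per gene and no value per library, so neither the level in a group nor the overlap of the groups can be shown. The mean normalized count is given with each gene as the depth behind its fold change. It is not scaled by transcript length, so means of different genes compare depth of counting and not transcript levels. The targeted transcript, Emg1, was at 30.2% of control after knockdown, a log2 fold change of -1.73 ± 0.11 (SE) in the authors' deposited table (adjusted p = 3.37e-54). The file names no direction, and this value is the reason for reading every fold change as knockdown over control. Of 14 sympathoadrenal and neuronal markers, 12 had values, with means of 1.32 (Nefm) to 27316 (Ret). Of the 11 with an adjusted p, 7 were higher and 2 lower after knockdown, where 17.1% and 15.5% of all tested genes were, or 26.1% and 19.3% of those with a mean of 1000 or more. The marker lists of pituitary and islet cells, leukocytes and fibroblasts gave values for 4 of 10, 1 of 6 and 3 of 6 genes, with means up to 342, 15.4 and 1357.

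In input RNA, 4 of the 10 genes rose after Emg1 knockdown, 1 fell, 4 did not pass an adjusted p of 0.05 and 1 had no adjusted p. Vgf, Chga and Chgb, which encode granule cargo, rose to between 120 and 137% of control, and Pcsk1n, which encodes a convertase inhibitor, had the largest fold change of the risers and the widest error. Cpe, the carboxypeptidase gene, fell slightly. The granin genes Scg2 and Scg3, the convertase gene Pcsk2 and its chaperone gene Scg5 did not pass. Over all 12807 genes with an adjusted p, 32.6% changed, 17.1% upward and 15.5% downward. Among genes counted at a mean of 1000 or more, where small changes are easier to call, 45.4% changed, 26.1% upward and 19.3% downward, and of the 7 granule genes in that range 3 rose and 1 fell. The number of changed genes therefore stood near that of other well-counted genes, and what follows is about the single genes. In these bulk samples, fewer cells with a transcript and less of it per cell cannot be told apart.

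**Figure D1:**
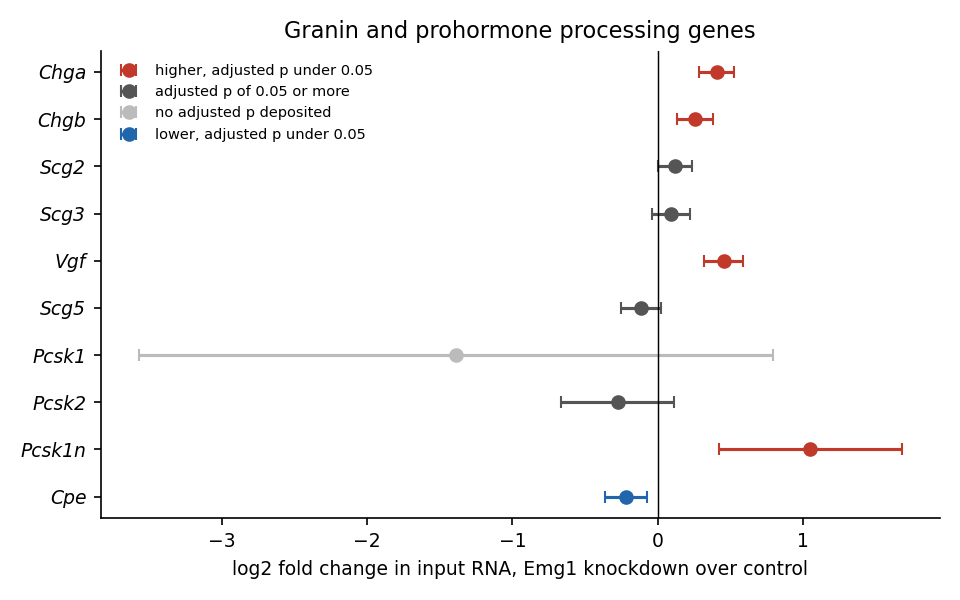
Log2 fold change of the 10 genes in input RNA, Emg1 knockdown over control (x axis), from the authors' deposited table, with bars for the 95% interval of 1.96 SE each way. Vgf, Chga, Chgb and Pcsk1n lie to the right of 0 and Cpe to the left, and the interval of Pcsk1 spans from -3.57 to 0.79.

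Among the granins, Chga encodes chromogranin A, the classic blood marker of neuroendocrine tumours. It had a mean of 6344 normalized counts and rose by 0.41 ± 0.06 (log2, SE) in the authors' deposited table, which is 132% of control (95% interval 122 to 144%, adjusted p = 6.63e-10). Chgb encodes chromogranin B, a large granin of catecholamine granules. With a mean of 10221 normalized counts it rose by 0.26 ± 0.06, to 120% of control, in the authors' deposited table (adjusted p = 0.000359). Vgf encodes a precursor induced by nerve growth factor that is processed into several neuropeptides. It had a mean of 13788 normalized counts and rose by 0.45 ± 0.07 in the authors' deposited table, which is 137% of control (95% interval 125 to 150%, adjusted p = 7.4e-10). Over all 2187 genes that rose, the median log2 fold change was 0.36, below the values of Vgf and Chga and above that of Chgb. At least as far as Vgf rose 648 of them, and at least as far as Chga 850, these genes included.

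The secretogranins had smaller fold changes. Scg2 encodes the precursor of secretoneurin. It had a mean of 18103 normalized counts and a log2 fold change of 0.12 ± 0.06 in the authors' deposited table, which did not pass (unadjusted p = 0.0437, adjusted p = 0.11). Scg3 encodes a granin that binds chromogranin A and cholesterol-rich granule membrane. Its log2 fold change was 0.09 ± 0.07 in the authors' deposited table (adjusted p = 0.32), and the 95% interval ran from -0.04 to 0.22. A rise as large as that of Chga thus lay outside the intervals of Scg2 and Scg3, whose upper ends were 0.24 and 0.22 (log2). The difference between genes was not itself tested.

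The processing enzymes and their partners went different ways. Pcsk1 encodes the convertase of the early secretory granule. It had a mean of only 9.22 normalized counts and a log2 fold change of -1.39 ± 1.11 with no adjusted p in the authors' deposited table, so no change was detectable at this depth. Pcsk2 encodes the convertase that makes the smaller end products, and had a mean of 301 and a log2 fold change of -0.28 ± 0.20 in the authors' deposited table (adjusted p = 0.298). Scg5 encodes the chaperone that Pcsk2 protein needs to mature. Its log2 fold change was -0.12 ± 0.07 at a mean of 3296 in the authors' deposited table (adjusted p = 0.213). Cpe, which encodes carboxypeptidase E, fell to 85.9% of control, a log2 fold change of -0.22 ± 0.07 at a mean of 3447 in the authors' deposited table (adjusted p = 0.0116). At an adjusted p under 0.01 the call of Cpe was lost.

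Pcsk1n encodes proSAAS, a granin-like protein with an inhibitory segment against the Pcsk1 convertase. It rose by 1.05 ± 0.32 (log2, SE) in the authors' deposited table, which is 207% of control, with a 95% interval from 134 to 320% (adjusted p = 0.00504). It was the only one of the 10 genes with both an adjusted p under 0.05 and a log2 fold change of at least 0.5 in size, which 9.55% of all tested genes had. Its mean was 799 normalized counts. Among 1175 genes with a mean within 1.2-fold of that, the median SE was 0.13, and 99.9% had a smaller SE than Pcsk1n. The rise was 3.28 times its SE, and its size is known less precisely than that of nearly all genes of similar depth. In the RefSeq annotation Pcsk1n overlaps Eras by 135 bases, and Eras had a mean of 1.71 normalized counts in the authors' deposited table. Pcsk2 overlaps the long noncoding genes Pcsk2os1 and Pcsk2os2, with means of 121 and 4.02 in the authors' deposited table. The library kit is stranded, but the sources used here do not say if the counting used strand, so reads of Pcsk2 and these genes may not be separated.

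**Figure D2:**
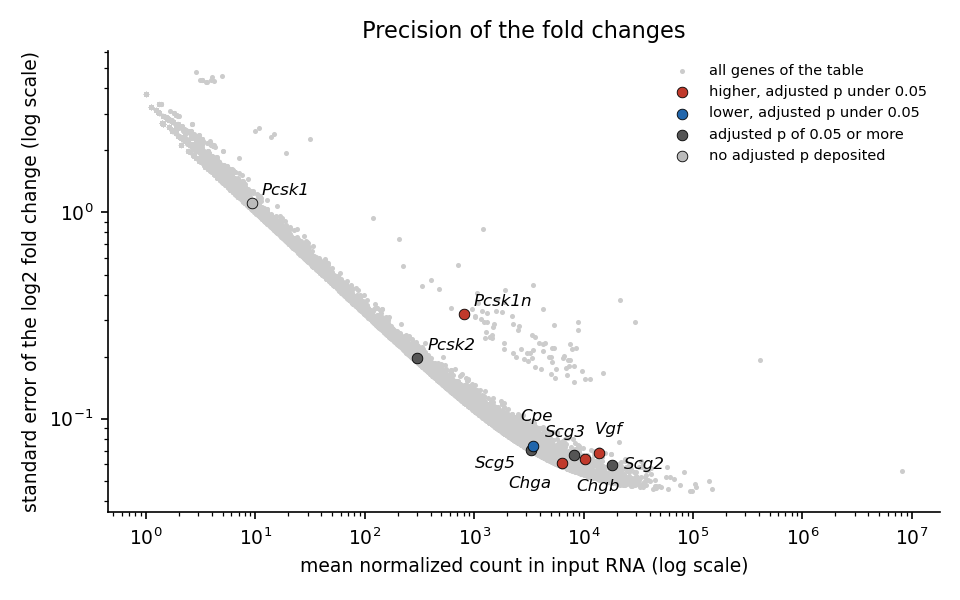
Standard error of the log2 fold change (y axis, log scale) against the mean normalized count (x axis, log scale) for all 16279 genes of the input table in grey and the 10 granule genes in colour. Pcsk1n, with an SE of 0.32, lies above the band that holds most genes of its mean, while the other 9 lie within or at the edge of the band.

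Chromogranin and secretogranin promoters are textbook targets of the cAMP pathway, and upstream sequences were searched for its response element. RefSeq promoter sequences (GRCm38.p6) were matched for 8 of the 10 genes. Vgf and Cpe had no entry in the promoter set used here, so their promoters could not be examined. Each run below is the 250 bases before the annotated transcript start, 5′ to 3′ on the strand of the gene. Capitals mark the cAMP response element, searched on both strands as the palindrome TGACGTCA and as TGACGTAA, and the core TGACG, which lies inside both. The windows are chr12:102554691-102554940 (plus strand) for Chga, chr2:132781392-132781641 (plus strand) for Chgb, chr1:79440027-79440276 (minus strand) for Scg2 and chrX:7919572-7919821 (plus strand) for Pcsk1n.
Chga: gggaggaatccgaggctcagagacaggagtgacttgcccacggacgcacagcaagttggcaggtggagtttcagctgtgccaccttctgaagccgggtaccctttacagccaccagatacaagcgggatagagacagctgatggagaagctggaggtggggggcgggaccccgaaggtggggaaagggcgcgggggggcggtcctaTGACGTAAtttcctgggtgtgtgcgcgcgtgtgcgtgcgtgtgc
Chgb: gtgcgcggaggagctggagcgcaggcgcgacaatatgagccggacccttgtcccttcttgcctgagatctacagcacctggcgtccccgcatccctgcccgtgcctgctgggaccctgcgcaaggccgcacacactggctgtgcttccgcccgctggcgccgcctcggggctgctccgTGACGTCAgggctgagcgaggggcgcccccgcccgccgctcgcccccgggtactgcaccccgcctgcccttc
Scg2: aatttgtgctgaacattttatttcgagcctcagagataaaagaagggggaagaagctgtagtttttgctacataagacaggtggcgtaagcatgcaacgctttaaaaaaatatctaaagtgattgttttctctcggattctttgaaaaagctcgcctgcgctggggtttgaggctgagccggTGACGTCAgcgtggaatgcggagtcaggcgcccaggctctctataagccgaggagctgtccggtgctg
Pcsk1n: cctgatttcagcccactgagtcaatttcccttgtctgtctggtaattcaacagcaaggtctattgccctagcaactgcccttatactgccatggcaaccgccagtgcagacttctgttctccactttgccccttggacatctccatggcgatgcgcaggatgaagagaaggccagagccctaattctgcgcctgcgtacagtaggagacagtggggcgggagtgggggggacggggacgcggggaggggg
The palindrome TGACGTCA began 72 bases before the start in Chgb, 68 before it in Scg2 and 78 before it in Pcsk1, so 3 of the 8 windows held it, against 1.55% of 32851 promoter windows in the table. The windows of Pcsk1 and Scg3 lie inside the RefSeq gene span, before a transcript start downstream of the 5′ end of that span. TGACGTAA began 44 bases before the start in Chga, the only one of the 8 windows with that form, which 0.447% of all windows held. No other form was searched beside the palindrome and the core, so the 0.447% does not show how unusual the Chga window is. The core TGACG was in 7 of the 8 windows and in 17.8% of all windows. Of the 8, only Pcsk1n held no core. Chgb and Scg2 both held the palindrome, and in input RNA Chgb rose while Scg2 did not pass. Their 95% intervals overlapped, at 0.13 to 0.38 for Chgb and 0.003 to 0.24 for Scg2 (log2) in the authors' deposited table. The difference between Chgb and Scg2 was not tested. Whether these elements bear on the fold changes in input RNA was not tested either. These matches describe letters and do not show that a factor was bound.

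Differential m6A peaks lay on 6 of the 10 genes, and all 8 of these peaks had a negative change as deposited. Vgf carried 3 peaks and Chga, Chgb, Scg2, Scg3 and Pcsk2 carried 1 each, while Scg5, Pcsk1, Pcsk1n and Cpe carried none. Over the input table, 11.7% of genes had a listed peak and 6.25% had one with a negative change. Among genes with a mean of 1000 or more the shares were 22.8% and 13.2%, and 5 of the 7 granule genes in that range had a negative-change peak. Those 5 had means of 6344 to 18103, and the share among genes of like depth was not computed. Of all 2114 listed peaks, 53.1% were negative. Which condition stands in the numerator of a peak change is stated nowhere in the file, so a negative value cannot be read as loss or gain of m6A after knockdown. The list holds only peaks that passed the authors' threshold and gives no error for a change.

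Of the 8 peaks, the one with the smallest false discovery rate was on Vgf. The 3 peaks of this gene lay one after the other in the 3′ part of the gene on mm10, at chr5:137030295-137030977, chr5:137031303-137031749 and chr5:137032105-137032698, and the last of them ended 653 bases before the end of the RefSeq gene span. In the authors' deposited table their log2 changes were -1.83, -0.67 and -1.50, with false discovery rates of 1e-102, 7.94e-59 and 1e-173. Enrichment of IP over input was 1.91-fold, 6.85-fold and 4.28-fold, against a median of 5.525-fold over the listed peaks, so the peak with the largest change was only weakly enriched. Of the 16 genes with at least 3 listed peaks, Vgf was among the 13 whose peaks were all negative.

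The chromogranin peaks were long and spanned several blocks. The Chga peak (chr12:102561411-102564699) covered 1076 bases in 4 blocks, had a fold enrichment of 7.47 and changed by -0.65 (log2) in the authors' deposited table, with a false discovery rate of 1.26e-91. The Chgb peak (chr2:132786495-132794894) covered 1961 bases in 3 blocks, had a fold enrichment of 10.8 and changed by -0.56 in the authors' deposited table, with a false discovery rate of 1e-145. Both peaks reached close to the 3′ end of the gene, stopping 328 bases before it in Chga and 185 bases before it in Chgb. These 2 genes and Vgf rose in input RNA, so on each of them the sign of the peak change was opposite to that in input RNA as deposited, and would be the same with control as the numerator of the peak change. The marker Gata2 also rose in input RNA, by 0.28 ± 0.06, and had a peak change of -0.33 in the authors' deposited table. Stmn2, a neuronal marker, instead fell by 0.65 ± 0.06 in input RNA and had a peak change of -0.66 in the authors' deposited table. In the related and marker lists, the called genes with a listed peak were Cpd, Ehmt2, Gata2, Hand2, Npy, Phox2a and Stmn2. Of these, Stmn2 alone had the same sign in input RNA and in its peak change as deposited. These lists were chosen with earlier results of these data known. How often the signs differ among all called genes with a listed peak was not computed, so no relation is read from them. The sources used here do not say if a peak change is computed with the input libraries.

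**Figure D3:**
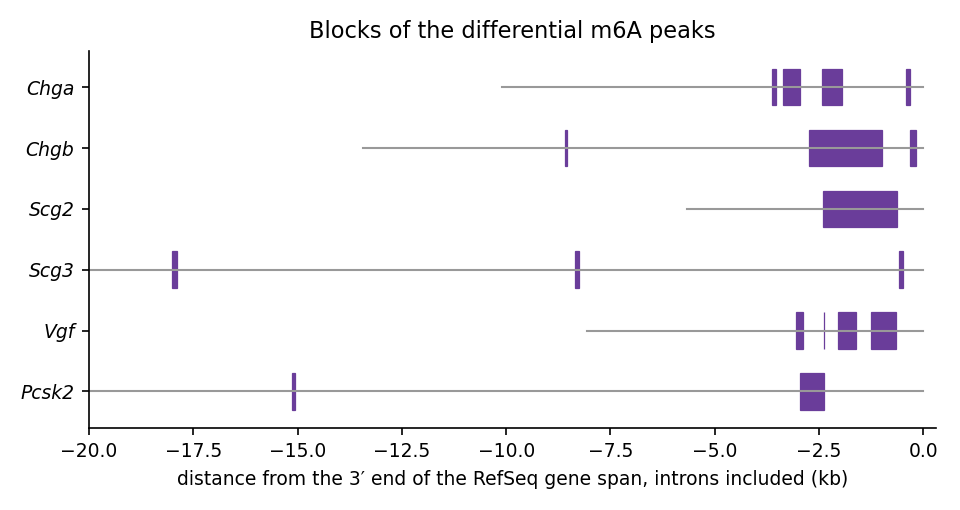
Blocks of the 8 differential m6A peaks (filled boxes) on the 6 genes that carry them, placed by distance from the 3′ end of the RefSeq gene span in kb, introns included (x axis), with the gene as a grey line that is cut off at 20 kb for Scg3 and Pcsk2. The last block ends within 1 kb of the 3′ end in every gene but Pcsk2, where it ends 2388 bases before it.

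The other 3 genes with a peak did not pass in input RNA. Scg2 had the most enriched peak of the set, 16.0-fold, in a single block of 1767 bases (chr1:79434998-79436764), and it also had the smallest change, -0.22 in the authors' deposited table, with a false discovery rate of 3.16e-38. The Scg3 peak (chr9:75643843-75661368) had a fold enrichment of 1.91 and a change of -0.44 in the authors' deposited table (false discovery rate 1e-12). It covered 299 bases in 3 blocks that were spread over 17526 bases. The Pcsk2 peak (chr2:143801147-143813896) changed by -0.94 at a fold enrichment of 6.79 in the authors' deposited table, with a false discovery rate of 0.0123, among the weakest in the list. Its gene also had the lowest input mean of the 6, 301 normalized counts. Of the 8 peaks, 4 were among the 50 with the smallest false discovery rate in the list, on Vgf, Chga and Chgb, and small rates go with deep coverage as well as with large changes. By size of change the 8 peaks were ordinary: their median was -0.66, against -0.72 for all negative peaks, and 3 of them lay beyond that median.

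**Figure D4:**
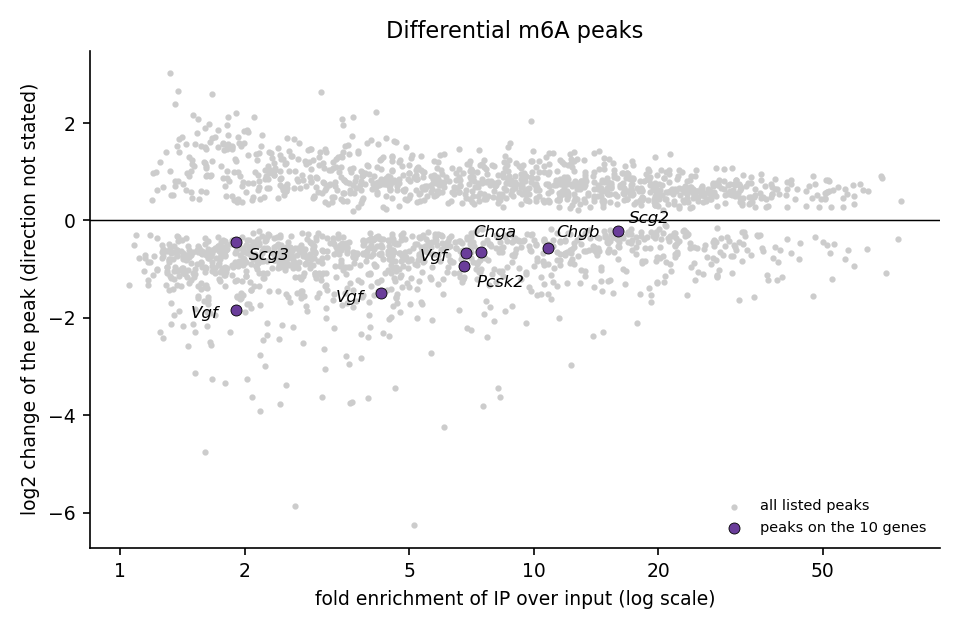
Log2 change of each listed m6A peak (y axis, as deposited, numerator not stated) against its fold enrichment of IP over input (x axis, log scale), with all 2114 peaks in grey and the 8 peaks on granule genes in purple. All 8 lie below 0, from -0.22 on Scg2 to -1.83 on Vgf.

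Genes that act beside the granins were counted in 4 related lists, whose calls are read against the 17.1% of all tested genes that rose and the 15.5% that fell. Of 16 other enzymes that process or modify secreted precursors, 12 had an adjusted p, of which 1 rose and 3 fell (median log2 fold change -0.10, against 0.00 for all tested genes), counts near those shares of all genes. Cpd, a carboxypeptidase of the trans-Golgi network with an activity like that of Cpe, fell by 0.53 ± 0.08 in the authors' deposited table (adjusted p = 1.68e-09). Furin, the convertase of the constitutive pathway, fell by 0.39 ± 0.10 and Ctsl, a cathepsin, by 0.32 ± 0.07, while the convertase gene Pcsk6 rose by 0.49 ± 0.09 in the authors' deposited table. Cpd carried 2 positive-change peaks, 0.90 and 0.93 in the authors' deposited table.

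Of 33 neuropeptide and hormone precursor genes, 16 had values and 9 an adjusted p, of which 1 rose and 1 fell (median -0.10), near the 17.1% and 15.5% of all tested genes. Npy, the precursor of neuropeptide Y, rose by 0.41 ± 0.13 (adjusted p = 0.00619) and carried a negative-change peak of -0.91 at a fold enrichment of 1.86 in the authors' deposited table. Adm, the adrenomedullin precursor, fell by 2.08 ± 0.32 in the authors' deposited table (adjusted p = 1.17e-09). Bdnf and Nppb had log2 fold changes of -0.60 ± 0.58 and -0.37 ± 0.51 in the authors' deposited table and did not pass.

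In the list of granule biogenesis, cargo and exocytosis, 19 of 25 genes had an adjusted p, of which 0 rose and 6 fell (median -0.18), against 17.1% and 15.5% of all tested genes and 26.1% and 19.3% of those with a mean of 1000 or more. No test of the list was made. Arfip1, which binds Arf GTPases at the trans-Golgi network, fell by 0.45 ± 0.09 and Cyb561, the granule cytochrome that regenerates ascorbate, by 0.41 ± 0.09 in the authors' deposited table. Rab2a and Hid1, which take part in granule maturation, fell by 0.33 ± 0.09 and 0.25 ± 0.07 in the authors' deposited table. The one listed peak in this group was on Ccdc186, a partner of Rab2a in granule maturation, with a change of 0.41 and a fold enrichment of 77.3 in the authors' deposited table. Its input log2 fold change of 0.21 ± 0.11 in the authors' deposited table did not pass (adjusted p = 0.159).

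Among REST, its corepressors and transcription factors of neuroendocrine cells, 17 of 20 genes had an adjusted p, of which 7 rose and 1 fell (median 0.21), against 17.1% and 15.5% of all tested genes and 26.1% and 19.3% of those with a mean of 1000 or more. This list was not tested either. Insm1, a zinc finger factor of neuroendocrine differentiation, rose by 1.18 ± 0.11, and Phox2a, a homeobox factor of the sympathetic lineage, rose by 0.59 ± 0.07 in the authors' deposited table. Rest, which encodes a repressor of neuronal genes including granins, rose by 0.28 ± 0.10 (adjusted p = 0.0241), and Hdac2, a corepressor deacetylase, fell by 0.78 ± 0.06 in the authors' deposited table. Rest was named after its value was seen. Listed peaks were on Phox2a (-3.78), Hand2 (-0.89 and -0.85), Ehmt2 (-0.75), Atf1 (-0.62) and Kdm1a (1.01) in the authors' deposited table. Of these, Phox2a, Hand2 and Ehmt2 rose in input RNA, and Atf1 and Kdm1a did not pass.

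**Figure D5:**
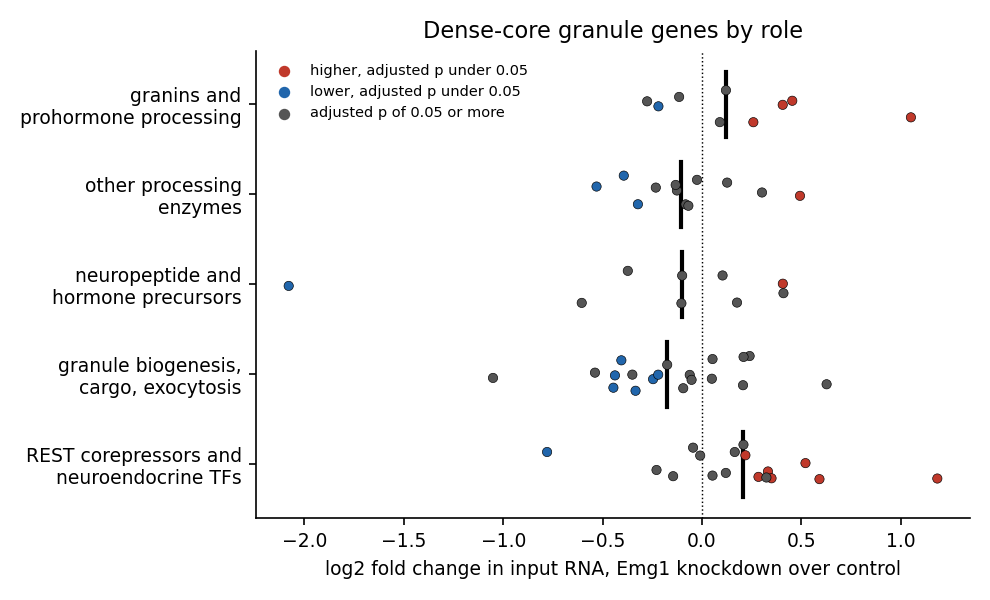
Log2 fold change in input RNA, Emg1 knockdown over control (x axis), of each gene with an adjusted p in the authors' deposited table, by role, with the median of each list as a black bar. The medians are 0.12 for the granin and prohormone processing genes and 0.21 for the REST and transcription factor list, and lie between -0.18 and -0.10 for the other 3 lists.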

How the data were processed

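The submitters' processing notes name Trimmomatic, HISAT2, DESeq2 and the mm10 build. The sources used here give no read counter, annotation, peak caller or tool version. In the DESeq2 results table deposited by the authors, mean expression is a signal (normalized counts averaged over libraries), and the log2 fold change and its SE are log2 values. Each gene has a p-value and an adjusted p-value that the authors deposited, and the deposited Wald statistic is a score equal to fold change over SE. The 3472 genes without an adjusted p had means at or below 22.7. In the peak list deposited by the authors, fold enrichment is a ratio of IP over input, the change is a log2 value, and log10 p-values and false discovery rates are kept as scores. Peak starts were made 1-based.

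Neither table holds values per library, so the depth of each library is unknown, no model was refitted, and precision is that of the deposited SE. Genes were called at the authors' adjusted p under 0.05, and intervals are 1.96 SE each way. The adjustment was recomputed for the alternatives and tested on simulated data. The 10 genes, the 4 related lists and the 4 marker lists were chosen with earlier results of these data known, and lists were given no test. Named were the 10 genes, Emg1, the 4 genes of each related list with the smallest adjusted p and its genes with a listed peak, and 1 gene that this rule names is not reported here. Gata2 and Stmn2, of the marker lists, were named outside this rule. Of 94 genes in the related lists 69 had values, 1 of them matched through an older symbol. Positions are from RefSeq GRCm38.p6, the same assembly as mm10. Scripts ran in Python 3.11.15 with pandas 2.3.3, numpy 2.4.6, matplotlib 3.10.9 and scipy 1.17.1.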

Additional observations from a re-analysis of the deposited data

How the results depend on the processing

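Of 54 values of single genes, the 10 and Emg1, under the alternatives (adjusted p under 0.01 or 0.1, adjustment over all genes, a minimum mean of 100, and subtraction of 0.01, the median of genes at means of 100 or more), 53 kept their direction and their side of the threshold. The exception was Cpe, which does not pass at 0.01, where the number of fallers among the 10 genes is 0. The number of the 10 genes with an adjusted p under 0.05 and a log2 fold change of at least 0.25 in size is 4, against 1 at 0.5. The number with a differential peak is 1, Vgf, when a change of at least 1 (log2) is asked, against 6, and 5 with a fold enrichment of at least 2 or a false discovery rate under 0.01. The counts of the related lists stayed within 1.5 times of the main ones. Chosen after seeing the data, a minimum mean of 1000 leaves 4 changed genes and 5 with a peak, and without Pcsk1n 3 genes rose. No paired analysis was possible because neither table holds values per library, and for the same reason replicates could not be left out in turn. Depth limits Pcsk1 most, at a mean of 9.22.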
